A study of Oryza sativa with 12 samples.

Results

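EAT1 and CYP703A3 are genes of the tapetum, the innermost wall layer of the anther, and their signals were followed in panicles of a heat tolerant and a heat sensitive rice line. Both were picked by name, with their values on these arrays already known. They were matched by synonym, ignoring a leading Os, to the gene records behind the array's probe sets. They make up 2 of 17905 genes with a probe set, and each had 1 probe set. EAT1 is LOC4336865, also called BHLH141 and DTD, and CYP703A3 is LOC4344594.

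Panicles of heat tolerant line 252 and heat sensitive line 082 were hybridized to a 1-colour Affymetrix rice array, with 3 arrays described as biological replicates in each of 4 groups, 12 in all. High temperature was a cycle of 37 °C days and 30 °C nights that lasted 5 days. The optimal cycle had 30 °C days and 25 °C nights. The labels state no transgene, pooling, panicle stage or hour of sampling, and nothing beyond the word biological says that replicates came from separate plants. P-values then set group differences against the spread between panicle samples of the same group. The number of arrays limits the precision of each value.

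The tapetum feeds the developing microspores, supplies lipid precursors of the pollen wall and then dies by programmed cell death. EAT1 is a basic helix-loop-helix transcription factor that acts with the related factor TDR and promotes tapetal cell death in rice, in part through the aspartic protease genes AP25 and AP37. CYP703A3 is a cytochrome P450 hydroxylase that modifies fatty acids for the anther cuticle and the outer pollen wall, and its promoter is a target of the regulators GAMYB and TDR.

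The array series as a whole had replicate correlations of 0.948 to 0.977 on the log2 scale. Median signals were 36.5 to 41.9 on the high-temperature arrays and 55.2 to 68.4 on the optimal ones. The 3′/5′ signal ratio of the bacterial Dap control ranged from 11.2 to 13.2 on heated arrays and from 1.58 to 1.98 on optimal ones. The 18S rRNA signal was 980 to 1357 in line 252 and 18318 to 25253 in line 082 at optimal temperature, against 6901 to 11339 on heated arrays. These values move with temperature or line, and their part in the results that follow was not tested. The Dap ratios of heated and optimal arrays did not overlap. Whatever sets this ratio therefore cannot be told apart from temperature in any heat difference. All 14 floral organ genes listed for the tissue check were above the array median on 12 of 12 arrays, which is the check made of the panicle label.

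EAT1 was bright in 1 group, the sensitive line at optimal temperature. There its MAS5 signals, which Affymetrix software computes per probe set on a linear scale, were 82.5, 259 and 215 in replicates 1, 2 and 3, a mean of 186 ± 92.1 (SD, n = 3). In the same line at high temperature the signals were 18.8, 21.2 and 25.0, a mean of 21.7 ± 3.11. The lowest optimal array of line 082 lay above the highest heated one, and the spread at optimal temperature came mainly from replicate 1.

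In the tolerant line EAT1 was dim at both temperatures. Its signals at optimal temperature were 22.0, 20.0 and 14.0, with a mean of 18.7 ± 4.16. After heat they were 29.1, 48.9 and 28.3, with a mean of 35.4 ± 11.7. The heated arrays of line 252 were all above its optimal arrays, the reverse of the order in line 082. Of all kept probe sets, 23.0% had every heated array of line 252 above its optimal ones. In line 082, 34.1% had every heated array below, so nothing is read from this order.

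**Figure D1:**
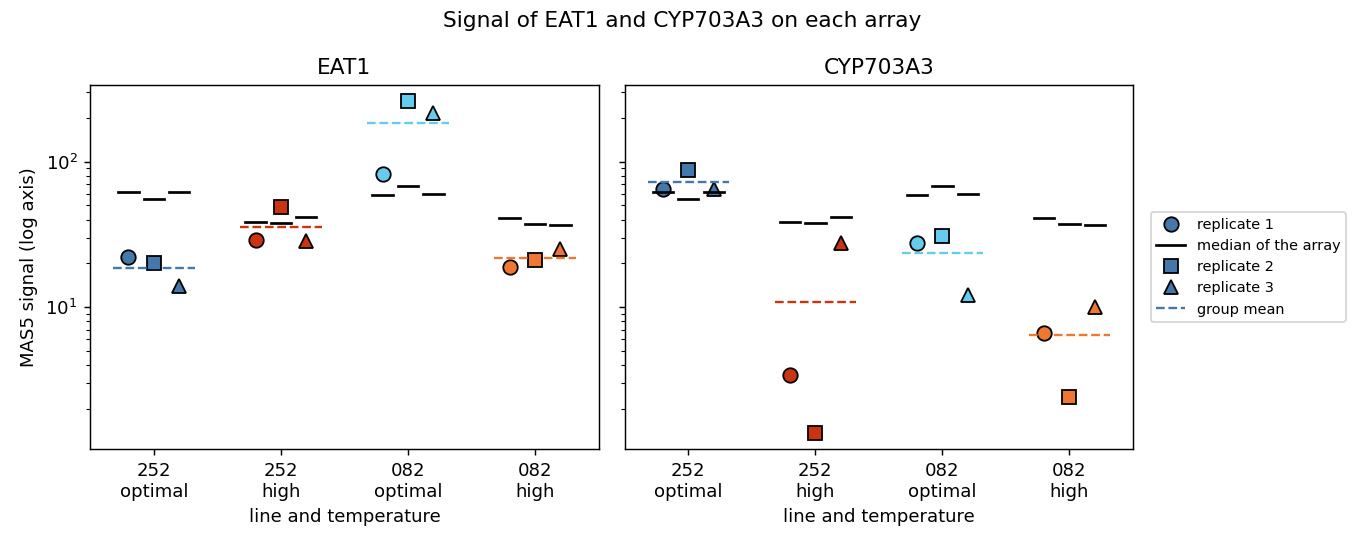
MAS5 signal (log axis) of EAT1, left, and CYP703A3, right, on each of the 12 arrays, by line and temperature. Circles, squares and triangles are replicates 1, 2 and 3, coloured dashed lines are group means and short black lines are the median signal of each array. EAT1 stands above the array median on the 3 optimal arrays of line 082 and on 1 heated array of line 252, and CYP703A3 on the 3 optimal arrays of line 252.

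CYP703A3 was brightest in the other line. In line 252 at optimal temperature its signals were 65.0, 88.0 and 65.3, a mean of 72.8 ± 13.2 (SD, n = 3). At high temperature they were 3.40, 1.37 and 27.8, a mean of 10.8 ± 14.7. Replicate 3 stood far above the others among the heated arrays, and all 3 heated arrays were below all 3 optimal ones.

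In line 082 the CYP703A3 signals were 27.6, 30.7 and 12.1 at optimal temperature, a mean of 23.5 ± 9.95. They were 6.67, 2.40 and 10.1 at high temperature, a mean of 6.38 ± 3.85. Heat was the lower condition in this line too, without overlap but with a gap of only 12.1 against 10.1 between the nearest arrays. Heated arrays of the lines overlapped, at 1.37 to 27.8 in line 252 and 2.40 to 10.1 in line 082.

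The order of group means for EAT1 was line 082 optimal, line 252 high, line 082 high and line 252 optimal. The leading group stood clear of the next, at 82.5 or more against 48.9 or less. Line 252 high and line 082 high were separated only by 28.3 against 25.0, and the last pair overlapped. For CYP703A3 the order was line 252 optimal, line 082 optimal, line 252 high and line 082 high. The leading group was clear of the rest, at 65.0 or more against 30.7 or less, and each of the later neighbours overlapped.

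The place of each gene among the probe sets of an array also reflects how well its own probes respond, and is given for description. EAT1 lay above 55.5 to 68.6% of the rice probe sets of an array in line 082 at optimal temperature, and above 23.6 to 54.8% in the other groups. CYP703A3 lay above 51.0 to 56.6% in line 252 at optimal temperature and above 3.78 to 41.0% elsewhere. The present or absent detection calls that MAS5 can give were not analysed here, so whether these signals differ from no transcript was not tested.

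A probe set entered the fit when it exceeded the median of its array on at least 3 arrays. EAT1 did so on 4 arrays and CYP703A3 on 3, all of them in line 252 at optimal temperature. There the margin was small, with CYP703A3 at 1.06, 1.60 and 1.06 times the array median. EAT1 was at 1.41, 3.79 and 3.58 times the median in line 082 at optimal temperature and at 1.29 times in replicate 2 of line 252 at high temperature. A gene kept through its bright group had to differ between groups, so the differences of both members are given as a description without a test.

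Differences were taken on log2(signal + 16) with standard errors from limma, a linear model fitted to all 33610 kept probe sets. EAT1 differed by −2.29 ± 0.38 (SE) between high and optimal temperature in line 082, and by 0.55 ± 0.38 in line 252. The ratio of the mean signals was 8.57 in favour of optimal temperature in line 082 and 1.90 in favour of high temperature in line 252. The second difference minus the first was 2.85 ± 0.53.

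CYP703A3 differed by −1.85 ± 0.40 between high and optimal temperature in line 252 and by −0.80 ± 0.40 in line 082. Optimal signals were 6.71 times the heated ones in line 252 and 3.68 times in line 082. The difference of these heat differences, 252 minus 082, was −1.05 ± 0.56 and was not tested. In bulk panicles, fewer tapetal cells and less RNA per cell cannot be told apart.

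The lines differed in opposite directions at optimal temperature. EAT1 was lower in line 252 by 2.42 ± 0.38 on the log2 scale (a difference of −2.42), the mean signal of line 082 being 9.96 times that of line 252. CYP703A3 was higher in line 252 by 1.19 ± 0.40, with 3.10 times the mean signal. At high temperature the line differences (252 minus 082) were 0.43 ± 0.38 for EAT1 and 0.15 ± 0.40 for CYP703A3. Without replicate 3 of line 252 at high temperature the latter became −0.27, so its sign rested on that array.

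No call is given for the 2 genes, which were chosen with these contrasts known. For the other genes a call was an adjusted p under 0.05 with a log2 change of at least 1. Of all 16541 kept genes, 33.4% were called for heat in line 252 and 38.4% in line 082. Between the lines 28.9% were called at optimal and 1.48% at high temperature. The groups of EAT1 did not overlap in these 4 comparisons, nor did those of CYP703A3 outside the lines at high temperature. Groups did not overlap for 57.1% (heat, line 252), 60.8% (heat, line 082), 53.8% (lines, optimal) and 19.3% (lines, high) of kept probe sets, and nothing is read from the members' separation.

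**Figure D2:**
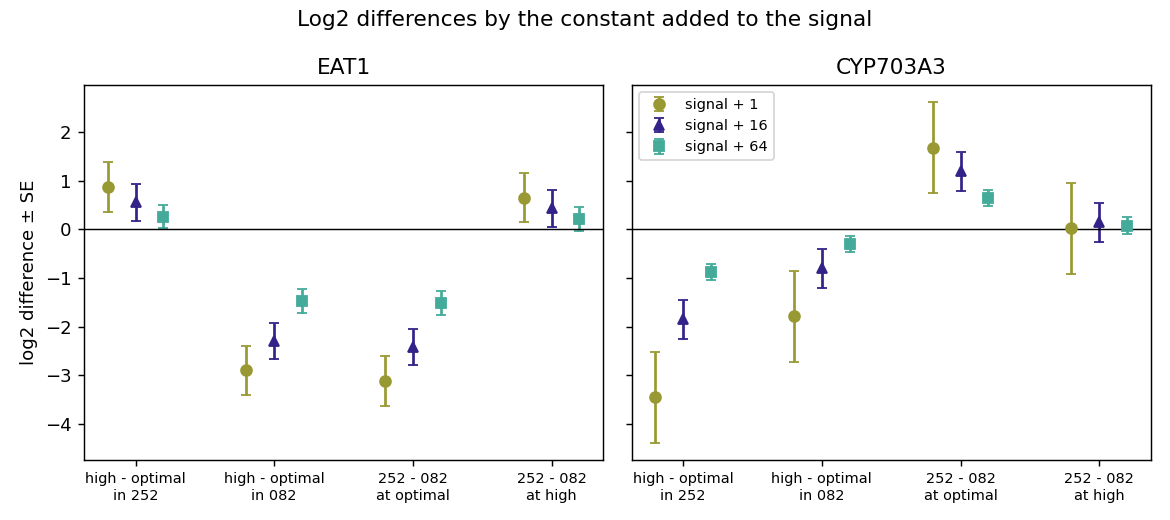
Log2 differences of EAT1, left, and CYP703A3, right, with 1, 16 or 64 added to the signals before taking log2. Points are differences and bars are standard errors from limma; the heat difference of CYP703A3 in line 252 runs from −3.45 with 1 added to −0.88 with 64 added, and the signs are the same under all 3 constants.

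Sizes depended on the constant added to these low signals, as the plot of log2 differences by added constant shows. The heat difference of CYP703A3 in line 252 was −3.45 ± 0.94 with 1 added and −0.88 ± 0.17 with 64 added. That of EAT1 in line 082 was −2.89 ± 0.50 and −1.47 ± 0.24. Directions held under these constants and under quantile normalization, centring on the 75th percentile and scaling to the hybridization spike controls, for the 2 genes in all 5 comparisons.

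The programme around the 2 genes was covered thinly. Of 49 names, the members' own included, listed for tapetum regulators, pollen wall genes and tapetal proteases, 13 genes besides EAT1 and CYP703A3 had a probe set under an unambiguous identity. Only 8 of the 13 were bright enough to enter the fit. UDT1, AP37, CYP704B2, DPW, PKS1 and ABCG15 had no match and were not analysed here.

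Both matched helix-loop-helix partners of EAT1 stayed under the array medians. TDR, its helix-loop-helix partner, had signals of 1.41 to 30.0 and exceeded the array median on 0 of 12 arrays. TIP2 (BHLH142), the factor that acts upstream of both in rice, had signals of 2.07 to 28.1 and also exceeded it on 0 arrays. Neither was tested, and their values show no group above the others.

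Matched pollen wall and tapetum surface genes were also under the median on most arrays. RAFTIN1, an anther protein of the BURP family, reached 45.3 at most and exceeded the median on 0 arrays. C6, a lipid transfer protein gene, reached 55.4 and exceeded it on 2 arrays. RTS, an anther-specific gene needed for male fertility, exceeded it on 1 array, with 64.5 in line 082 at high temperature. These 3 genes and CYP703A3 make up the matched pollen wall list, and CYP703A3 was the one that entered the fit.

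**Figure D3:**
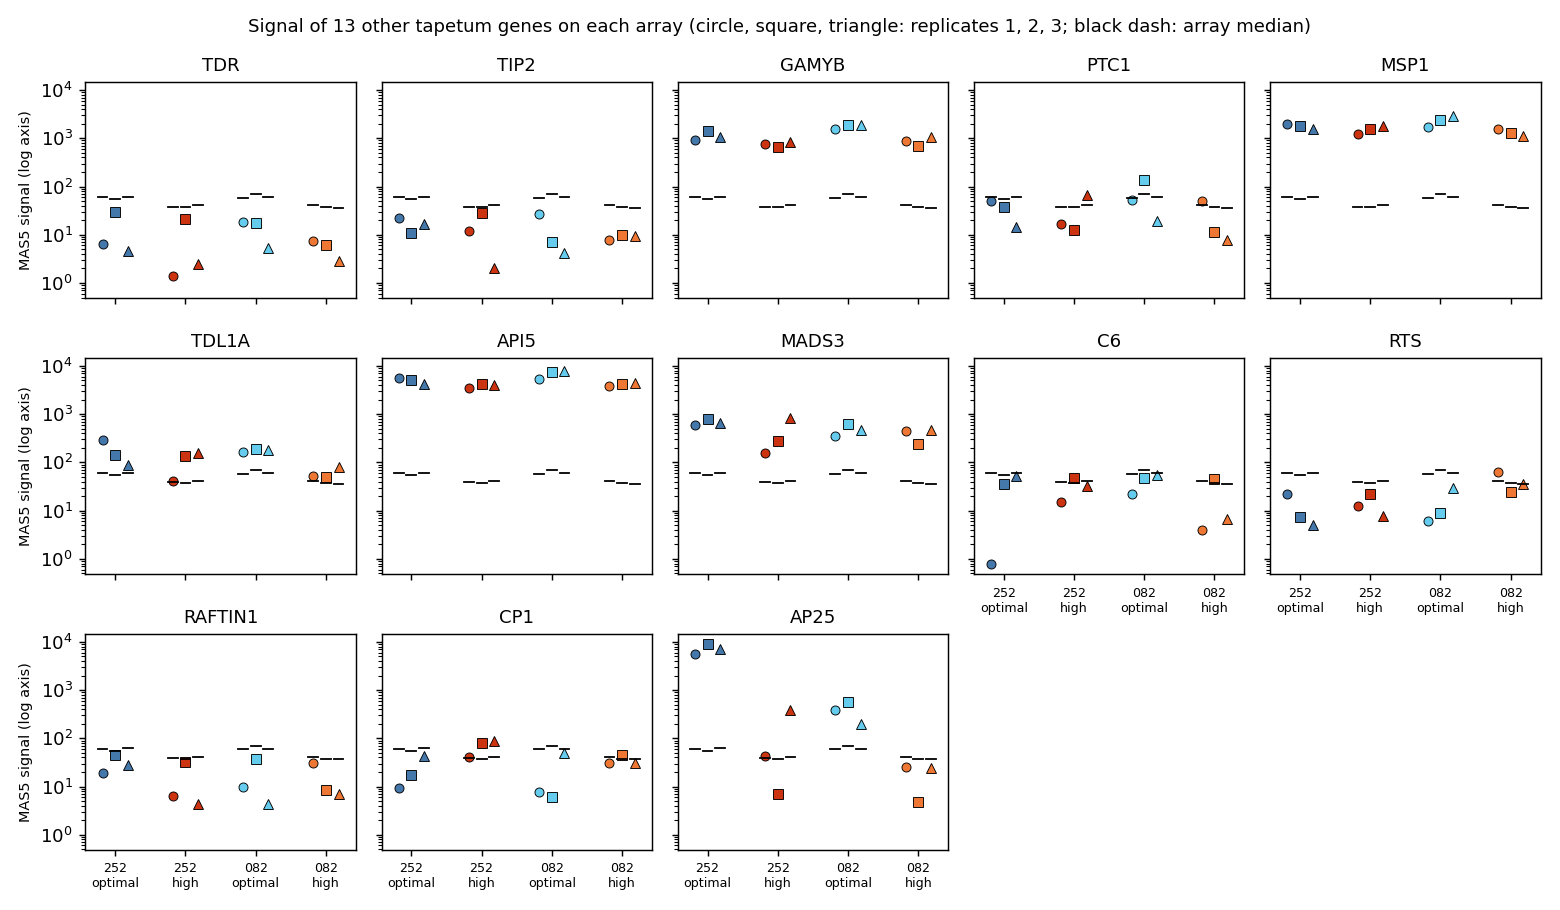
MAS5 signal (log axis) of the 13 other matched tapetum genes on each array, by line and temperature, with replicates 1, 2 and 3 as circles, squares and triangles and the array medians as black dashes. TDR, TIP2 and RAFTIN1 stay below the medians on all arrays, GAMYB, MSP1, API5 and MADS3 lie above them on all arrays, and AP25 runs from 4.79 to 9051.

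Regulators that act earlier in the anther wall were above the array median on 12 of 12 arrays. GAMYB, the gibberellin-dependent MYB factor that activates CYP703A3, had 1559 to 1908 in line 082 at optimal temperature and 703 to 1047 after heat. Its log2 change was −1.03 ± 0.19, and limma's adjusted p was 0.00055. In line 252 its mean was 1136 ± 255 at optimal and 744 ± 77.0 at high temperature, a difference of −0.58 ± 0.19 that did not reach the size limit except with spike scaling (limma, adjusted p = 0.0027). The call in line 082 sat at that limit: it was lost with centring on the 75th percentile (−0.84), with 64 added (−0.99), and without replicate 2 (−0.98) or 3 (−0.98) at optimal or replicate 2 at high temperature (−0.89). Its probe set carries the suffix that Affymetrix uses where probes may bind other transcripts. The probe sets of GLUA-2, GBSS-I, SDS, OSK3 and AKT1, named below, carry it too.

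TDL1A, the small secreted ligand of the receptor kinase MSP1, fell in line 082. Its signals were 161 to 187 at optimal and 51.0 to 79.4 at high temperature, a log2 change of −1.34 ± 0.44 (limma, adjusted p = 0.021). The call was lost with quantile normalization (−0.83) and with 64 added (−0.95). It was also lost without replicate 2 or 3 at optimal or replicate 1 or 2 at high temperature, where limma's adjusted p ran from 0.053 to 0.063. MSP1 itself differed by −0.82 ± 0.21 and did not reach the size limit, except without replicate 1 of line 082 at optimal temperature (−1.02).

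AP25, the aspartic protease gene that EAT1 activates, had the largest heat changes among the 8 other tapetum genes in the fit. Its signals in line 252 were 5463 to 9051 at optimal temperature, and 43.5, 7.03 and 378 in replicates 1, 2 and 3 at high temperature. The log2 change was −6.44 ± 0.77, with an adjusted p of 3.1e-05 in limma. In line 082 it fell from a mean of 383 ± 180 to 18.1 ± 11.5, by −3.50 ± 0.77 (limma, adjusted p = 0.0020).

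AP25 was higher in line 252 than in line 082 at optimal temperature by 4.26 ± 0.77 (limma, adjusted p = 6.9e-04), where EAT1 was lower in line 252. The heat changes of AP25 differed between lines by −2.94 ± 1.09, which did not pass (adjusted p = 0.058 in limma). It passed with quantile normalization (0.038), spike scaling (0.029), 64 added (0.0060) and without replicate 3 of line 252 at high temperature (0.0010). CP1, a cysteine protease gene, had mean signals of 23.7 at optimal and 70.0 at high temperature in line 252, and the groups overlapped by 1 array each. It entered the fit through the 3 heated arrays of line 252 and 1 other, so its difference of 1.16 ± 0.47 is given without a p. Whether CP1 was called depended on the scaling, the replicate block and single arrays left out. Nothing is read from this, because the filter favoured a difference in this gene.

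**Figure D4:**
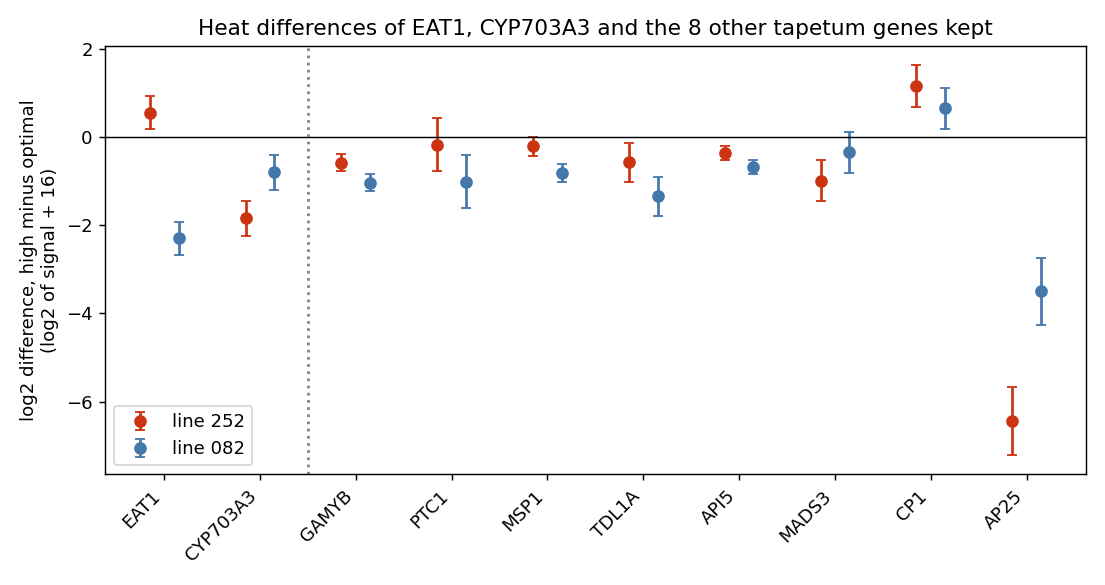
Log2 difference between high and optimal temperature in line 252 (red) and line 082 (blue) for EAT1, CYP703A3 and the 8 other tapetum genes in the fit. Points are differences of mean log2(signal + 16) and bars are standard errors from limma; AP25 has the lowest points, at −6.44 and −3.50, and the bar of PTC1 crosses 0 in line 252.

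Counted over the 8 fitted tapetum genes, 1 fell and 0 rose with heat in line 252, beside 22.0% and 11.3% of all genes. The median of the 8 changes was −0.47, against −0.15 over all genes. In line 082, 3 fell and 0 rose, beside 20.3% and 18.1%, with a median of −0.91 against 0.02 over all genes. Between the lines at optimal temperature 1 was higher in line 252, beside 18.8%. At high temperature limma called 0 of 8, beside 1.48% of all genes, and 0 had an unadjusted p under 0.05. For the difference of heat changes it called 0 of 8, beside 25.3%, with 1 at an unadjusted p under 0.05. PTC1, the PHD-finger regulator of late tapetum development, differed by −0.17 ± 0.60 and −1.01 ± 0.60 and did not pass (limma, adjusted p = 0.84 and 0.18). Its signals ran from 7.96 to 136 and exceeded the array median on only 3 arrays, so no absence of change is read from this.

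Profiles over the 12 arrays placed the 2 genes apart, with a Pearson r of −0.11 between them. The arrays fall into 4 groups and share them with every gene, so r is a description of group levels. Of 2339 genes with a name, 67 had an r over 0.9 with EAT1 and 69 with CYP703A3.

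AP25 was the named gene most like CYP703A3, with r = 0.98. It was followed by IAA30 (0.97), an auxin response repressor gene, OsPID (0.96), a kinase gene of auxin transport, the potassium channel gene AKT1 (0.96) and the receptor kinase gene CR4 (0.96). In all 5, as in CYP703A3, replicate 3 was the highest of the heated arrays of line 252. Picking them by r with CYP703A3 favours this, so nothing is read from it. AP25 had 378 there against 43.5 and 7.03, IAA30 had 1681 against 254 and 331, and CR4 had 313 against 56.5 and 54.9. The summed signal of 11 meiosis genes was 3608 on that array and 1539 and 1982 on the other two.

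EAT1 was most like OSK3 (r = 0.96), an SNF1-related kinase gene, S1FA (0.96), OsSGT1 (0.95), the CCCH zinc finger gene OsC3H63 (0.95) and CCB1 (0.95). Each of the 5 had its highest mean in line 082 at optimal temperature, which picking them by r with EAT1 favours. OSK3 had 13156 ± 3051 there and means of 4816 to 6726 in the other groups.

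**Figure D5:**
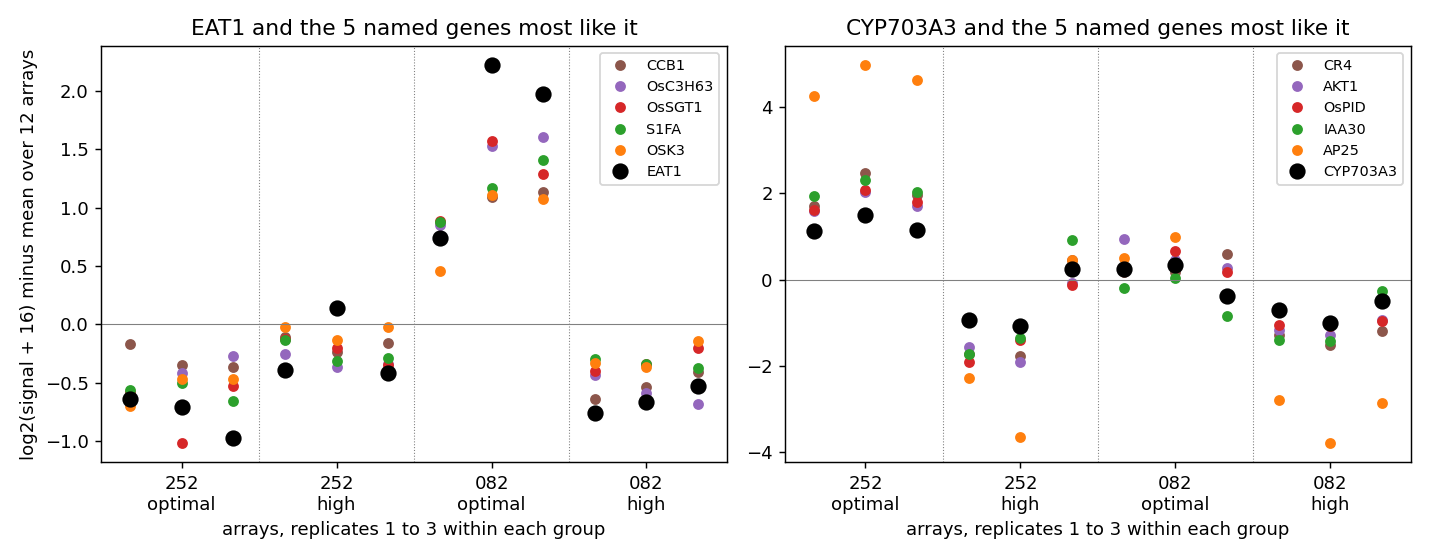
Log2(signal + 16) minus its mean over the 12 arrays for EAT1, left, and CYP703A3, right (black), and the 5 named genes most like each (colours). Each group of points holds replicates 1 to 3 from left to right. The EAT1 set is highest in line 082 at optimal temperature and the CYP703A3 set in line 252 at optimal temperature. Replicate 3 of line 252 at high temperature stands up in the right panel. Picking genes by r with each member favours these shared patterns.

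Markers of other tissues also differed between the 4 groups, each list in its own way. The summed signal of 11 grain genes was 190013, 258526 and 249259 on the line 082 optimal arrays where EAT1 was bright. It was 12488, 624 and 484 in line 252 at optimal temperature and 155 to 707 on heated arrays. Of the 12488, on replicate 1, 11646 was the signal of 1 gene, GBSS-I. All 10 grain genes in the fit were lower with heat in line 082, beside 20.3% of all genes called lower. As 7 of the 10 entered the fit on at most 4 arrays, 3 of them optimal arrays of line 082, these had to differ and nothing is read from the count. The largest differences were those of the glutelin genes GLUA-1 (−10.71 ± 0.50) and GLUA-3 (−10.30 ± 0.50). In line 252, 2 were called lower, beside 22.0% of all genes, NF-YB1 (−1.93 ± 0.68), an endosperm transcription factor gene, and GLUA-2 (−1.01 ± 0.28). Both calls were lost with quantile normalization (−1.66 and −0.40). NF-YB1 was also lost without replicate 1 of line 252 at optimal temperature (−0.86) or any 1 of its heated arrays, and GLUA-2 without replicate 3 at optimal (−0.96) or replicate 2 (−0.78) or 3 (−0.82) at high temperature. The part of grain tissue in the EAT1 values was not tested.

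Of 10 meiosis genes, 4 fell and 0 rose in line 252, beside 22.0% and 11.3% of all genes, and 3 fell and 0 rose in line 082, beside 20.3% and 18.1%. Over the alternatives and left-out arrays 3 to 6 fell in line 252 and 3 to 4 in line 082, where up to 2 rose (HEI10 and SDS, each by 1.22 with quantile normalization; SDS also without replicate 1 of line 082 at optimal temperature). Genes that fell in both lines include CRC1 (−3.21 ± 0.44 and −2.95 ± 0.44) and SPO11-4 (−2.82 ± 0.38 and −3.46 ± 0.38). The summed signal of the 11 matched meiosis genes was 6277 to 7351 in line 252 and 3854 to 5595 in line 082 at optimal temperature, and 1488 to 3608 after heat. Of the matched pollen genes, EXPB10, a beta-expansin gene that entered the fit through the 3 optimal arrays of line 252 and 1 other, differed by −3.54 ± 0.50 with heat in line 252, and INV4, an anther invertase gene, was above the median on 0 arrays. Among 14 floral organ genes 4 rose and 3 fell in line 252, beside 11.3% and 22.0% of all genes, and 6 rose and 0 fell in line 082, beside 18.1% and 20.3%. These counts moved with the scaling, to 2 up and 5 down in line 252 and 2 up in line 082 with spike scaling, and to 9 up in line 082 with 75th percentile centring. With 1 array left out, 2 to 6 fell in line 252 (6 without replicate 3 at high temperature), and 3 to 7 rose in line 082 (3 without replicate 2 or 3 at optimal temperature), with 1 fall without replicate 3. MADS16, a stamen identity gene, rose in both, by 1.87 ± 0.23 in line 252. MADS4 went the other way in line 252, with a change of −1.86 ± 0.36, and had 0.20 ± 0.36 in line 082. The part of the meiosis, pollen and floral organ genes in the CYP703A3 and EAT1 values was not tested.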

How the data were processed

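The deposited intensity values are MAS5 signals on a linear scale, per the submitters' processing notes; no version or target value is given in the sources used here. The mean after a 2% trim at each end was 500.1 on every array. Probe sets were named through the platform annotation and a RefSeq gene table (ASM3414082v1), and 187 control probe sets were set aside. No coordinates or sequences were used here.

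A filter kept the 33610 probe sets that exceeded the array's median on at least 3 of 12 arrays, and log2(signal + 16) was fitted with 4 group means in limma 3.58.1 (R 4.3.3), with an intensity trend and 8 residual degrees of freedom. Benjamini-Hochberg adjustment covered all kept probe sets. Where a gene had several probe sets, the one with the highest mean was used. The fit was tested on simulated data.

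The genes and lists were chosen with earlier results of these data known. After the annotation was seen, 4 list records were dropped because the name stood for another gene and 5 were added under a second name. The genes named were the members, a fixed set of tapetum genes, those called with the largest changes in each list, and the 5 most like each member; RAFTIN1, MSP1, API5, MADS3, HEI10, SDS and INV4 were added after their values were seen. Alternatives covered scaling, the added constant, the filter, the trend, a replicate block, the groups fitted, probe sets per gene and leaving out each array. Same-numbered arrays of different groups had deviations correlated at −0.20 to 0.13, so the numbers were not taken as pairs.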

Additional observations from a re-analysis of the deposited data

Results flagged for a closer look

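EAT1 is listed because all heated arrays of line 252 were above its optimal arrays and all heated arrays of line 082 were below theirs. It was chosen with these values known and kept through its bright group, so nothing is read from this separation. In line 252 the difference was 0.55 ± 0.38, with 1 array above the array median. The log2 difference of heat differences was 2.85, and this difference was not tested. Over all kept probe sets, 23.0% had every heated array of line 252 above its optimal arrays and 34.1% had every heated array of line 082 below. The share with both was not counted here.

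Heat differences of other named genes also differed between the lines (252 minus 082). The grain genes GLUA-1 (11.05), GLUA-3 (9.91) and NF-YB1 (5.98) and the beta-expansin gene EXPB10 (−2.45) entered the fit on 4 arrays, 3 of them of their bright group, so they had to differ and their values are given without a p. The grain gene GLUA-2 (7.77), read by a probe set that may bind other transcripts, was above the median on all 12 arrays. It had an adjusted p of 1.3e-07 in limma. The floral organ genes MADS6 (−1.79) and MADS4 (−2.07) had 0.016 and 0.0088. MADS1 (0.96) had 0.0095 in limma but stayed under the size limit of 1, so it was not called. GLUA-2 and these floral organ genes were named for large called heat changes within a line, which favours a difference between lines. Of all kept genes, 25.3% were called for this difference, and nothing is read from these p-values.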

How the results depend on the processing

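For EAT1 and CYP703A3, 1 sign turned over all alternatives and left-out arrays: the line difference of CYP703A3 at high temperature, −0.27 without replicate 3 of line 252. With 1 added to the signals, EAT1 had −2.89 (heat, 082), −3.12 (lines, optimal) and 3.76 (difference of heat differences), and CYP703A3 had −3.45 (heat, 252), −1.79 (heat, 082), 1.68 (lines, optimal) and −1.66 (difference). With 64 added these were −1.47, −1.52 and 1.73 for EAT1 and −0.88, −0.31, 0.65 and −0.57 for CYP703A3. From log2 of mean signals with nothing added, chosen after seeing the data, EAT1 had −3.10 (heat, 082), −3.32 (lines, optimal) and 4.02 (difference), and CYP703A3 had −2.75 (heat, 252), −1.88 (heat, 082) and 0.76 (lines, high). Leaving out 1 array gave EAT1 −2.75 to −2.01 for heat in 082, −2.87 to −2.13 between lines at optimal temperature and 2.56 to 3.30 for the difference; CYP703A3 ran from −0.27 to 0.40 between lines at high temperature. With a filter at the 75th percentile neither gene entered the fit. Each gene had 1 probe set in the annotation used, so a second probe set gave no value.

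Calls among the 8 tapetum genes for heat in 252 were 2 with quantile normalization, centring on the 75th percentile, the replicate block, the mean over probe sets and without the 082 optimal arrays, and 3 with spike scaling (1 to 2 with 1 array left out). For heat in 082 they were 1 with 64 added and 1 to 4 with 1 array left out. For the difference they were 1 with quantile normalization, spike scaling, 64 added and the names as first matched, and 0 to 1 with 1 array left out. The replicate block moved no other count by over 1.5 times. The filter at the 75th percentile, which tested 17353 probe sets, called 5532 (heat, 252), 7211 (heat, 082), 5272 (lines, optimal), 335 (lines, high) and 5069 (difference), against 9690, 12141, 9208, 591 and 7828.

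Calls up and down for heat in 252 were 3167 and 6523, and became 4406 and 4589 with quantile normalization, 4962 and 4723 with 75th percentile centring and 1710 and 10085 with spike scaling. For heat in 082, 4788 and 7353 became 6228 and 5439 with quantile normalization and 6172 and 6216 with that centring. Between lines at optimal temperature 5142 and 4066 became 4057 and 4901 after centring and 6872 and 3259 after spike scaling, and for the difference 3700 and 4128 became 2504 and 5908 after spike scaling. The causes were not tested. Signals near or under the array median limit every size given for these genes.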
